A study of Danio rerio with 24 samples.

Results

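The zebrafish genes described here encode the machinery by which secreted and membrane proteins enter the endoplasmic reticulum (ER), receive sugar chains and fold. They were chosen by gene symbol alone, and the rule used no measured value, but it was set with earlier results of these data known. The symbols were those of the signal recognition particle (SRP) and its receptor, the SEC61, SEC62 and SEC63 translocon, the signal peptidase, the translocon-associated protein (TRAP) complex, the core oligosaccharyltransferase, the ER HSP70 and HSP90 chaperones with their cofactors, the calreticulins and calnexin, and the protein disulfide isomerases whose symbols start with pdia. This rule matched 43 of the 32520 genes in the deposited tables, of which 29201 carried a symbol. The 43 genes fell into 7 roles, with 8 genes for SRP and receptor, 6 for the translocon, 8 for signal peptidase and TRAP, 6 for the oligosaccharyltransferase, 4 HSP70 or HSP90 chaperones, 4 lectin chaperones and 7 disulfide isomerases. In total, 42 of them had enough counts to be tested among 16223 genes, and pdia8 did not, with 0 to 20 counts per fish.

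The samples were livers of 24 adult ABTL zebrafish in 4 groups of 6 fish, with 3 females and 3 males per group. NF-control fish were normally fed and not trained, OF-control fish were not trained and overfed (9 mL of live shrimp for each fish), NF-training fish were normally fed and completed 20 swim training sessions over 8 weeks, and OF-training fish were both overfed and trained. All fish were fasted overnight before the livers were taken, and no genetic change was stated for any group. Each sample was a separate fish, named below by group, sex and the number in its label. Fish were kept 6 per tank and each group held 6 fish, and the tank of each fish was not given, so a difference between groups cannot be told apart from a difference between tanks.

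Nearly every secreted protein of the hepatocyte passes through this pathway. SRP binds the signal sequence of a nascent chain and docks at its receptor, the SEC61 channel passes the chain into the ER, signal peptidase removes the signal sequence, and the oligosaccharyltransferase attaches N-linked glycans. HSP70 and HSP90 chaperones, calnexin and calreticulin then assist folding, and disulfide isomerases form and rearrange disulfide bonds. In egg-laying vertebrates the female liver also secretes vitellogenin, the egg yolk precursor, under the control of estrogen.

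Sequencing depth lay between 19315642 and 21399321 estimated counts per fish. Vitellogenin transcripts took 29.3% to 74.5% of the counts in females (median 70.3%) and 0.00692% to 0.159% in males, which matched the labelled sexes in all 24 fish. The lowest shares among females were those of NF-training female 3 (29.3%) and NF-control female 1 (45.8%). Counts were therefore compared as CPM (read counts scaled to a common library size) after TMM scaling, which sets each library's effective size from the bulk of its genes and so discounts a few very abundant transcripts. Hepatocyte markers were present in every fish, at a summed 39418 to 180992 TPM in females and 203560 to 294536 TPM in males, where TPM is the deposited number of transcripts scaled for length and to a common sum. The 24 exocrine pancreas markers found summed to 10.8 to 517 TPM in females (median 180) and 103 to 1181 TPM in males (median 438). By edgeR with TMM, 0 of the 19 tested differed between the sexes (1 at an unadjusted p under 0.05). With library size alone, all 19 were higher in males. Of 17 germ cell and oocyte markers, 0 passed the filter on low counts, and their sum was at most 12.1 TPM. For the remaining lists, summed TPM was 26.2 to 359 in females and 132 to 858 in males for 7 erythrocyte markers, 82.2 to 324 and 86.5 to 680 for 13 leukocyte markers, and 170 to 769 and 344 to 588 for 12 biliary, endothelial and stellate markers. By edgeR with TMM, 2 of 4 erythrocyte and 8 of 12 biliary, endothelial and stellate markers tested were higher in males. Of 9 leukocyte markers, 1 was higher and 1 lower. Of all genes, 23.2% were higher and 22.6% lower with TMM. With library size alone, 4 erythrocyte, 11 biliary, endothelial and stellate and 7 leukocyte markers were higher and 0 lower. Of all genes, 86.5% were then higher and 2.48% lower. The part of these cell types in the results below was not tested, and in whole livers fewer cells of a type and less RNA per cell cannot be told apart.

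The clearest pattern in these genes was a lower level in males. Of the 42 genes tested, 39 were lower in males and 1, pdia7, was higher, by edgeR's quasi-likelihood test with Benjamini-Hochberg adjustment over all genes. Many liver genes differed between the sexes, and 45.8% of all genes tested passed the same threshold, 22.6% lower and 23.2% higher in males. The median log2 fold change of male against female was -1.63 over the 42 genes, a 3.09-fold lower level, against 0.06 over all genes tested. In 26 of the genes every female lay above every male in scaled CPM, which held for 3.69% of all genes tested, and in 0 did every male lie above every female (2.1% of all genes).

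**Figure D1:**
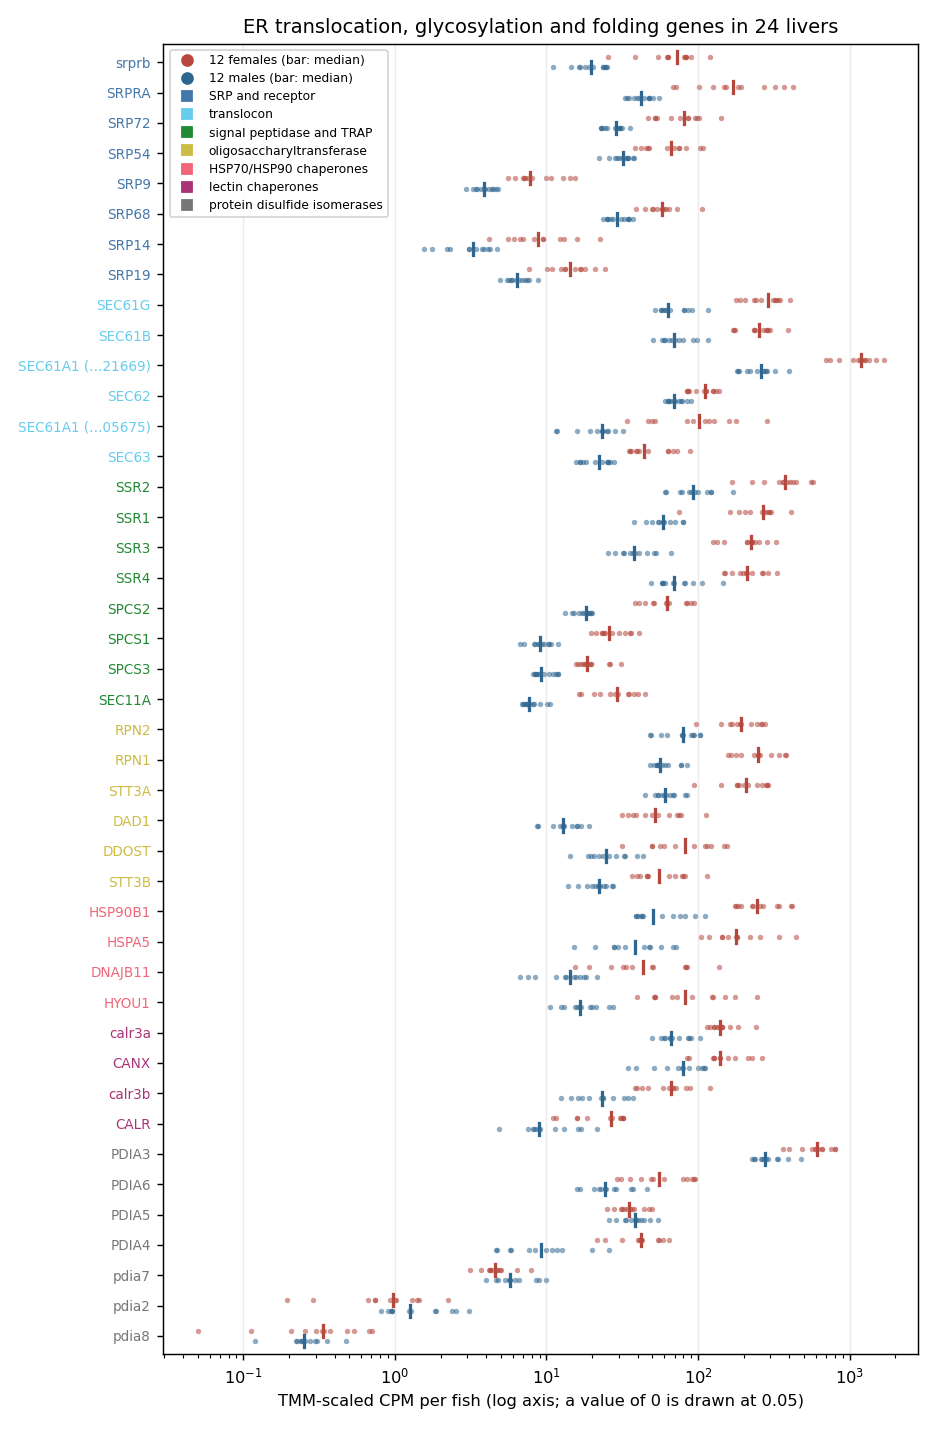
TMM-scaled CPM of the 43 genes in each of 12 females and 12 males on a log axis, grouped by role, with a vertical bar at the median of each sex. In 26 genes every female lies to the right of every male, while PDIA5, pdia7, pdia2 and pdia8 overlap widely.

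Summed over the 43 genes, transcripts took 0.673% to 1.5% of the TPM outside vitellogenin in females (median 0.882%) and 0.240% to 0.371% in males (median 0.272%). The sexes did not overlap in this share. They did not overlap in the uncorrected sum either, with 4315 to 9024 TPM in females and 2397 to 3712 TPM in males, although vitellogenin transcripts took up a part of the female total. By role, the uncorrected sums did not overlap for the translocon (1833 to 3701 TPM in females, 841 to 1379 in males). The same held for signal peptidase and TRAP (1331 to 2827 and 646 to 1125). The sums of all other roles overlapped between the sexes. The lectin chaperones also overlapped in the share outside vitellogenin.

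**Figure D2:**
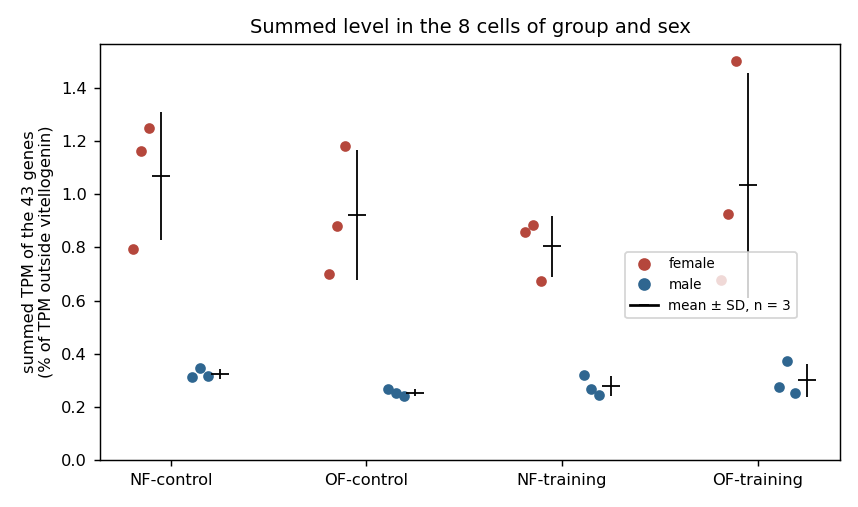
Summed TPM of the 43 genes as a percentage of TPM outside vitellogenin, with 1 point per fish for the 8 cells of group and sex and black bars for mean ± SD (n = 3). Females lie between 0.673% and 1.5% and males between 0.240% and 0.371% in all 4 groups.

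Per transcript length, the small translocon subunits SEC61G and SEC61B were the most abundant members in females, at 1132 ± 273 and 702 ± 163 TPM (SD, n = 12). They were followed by SSR2 at 608 ± 165, SEC61A1 (ENSDARG00000021669) at 545 ± 103 and PDIA3 at 465 ± 185 TPM. From SEC61B downward, neighbours in this order differed by less than their SD. In males SEC61G again came first with 459 ± 102 TPM, followed by PDIA3 with 341 ± 60.6, SEC61B with 322 ± 61.2 and SSR2 with 244 ± 62.6 TPM. PDIA3 and SEC61B differed by less than their SD in males, with ranges of 263 to 474 and 251 to 426 TPM, so their order is uncertain. The lowest members in both sexes were pdia2 and pdia8, with means of at most 1.02 TPM.

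The SRP and receptor genes were lower in males in 8 of 8 cases, with a median log2 fold change of -1.37. Scaled by library size alone, SRP9, SRP19, SRP54 and SRP68 turned to the opposite sign. SRPRA, the subunit of the SRP receptor that binds the particle, lay at 68.5, 169 and 423 CPM in females (lowest, median, highest) and at 33.0, 42.2 and 54.9 CPM in males. All females were above all males, and within females the 3 OF-control fish alone covered a range from 101 to 368 CPM. Its fold change was 4.59 on the linear scale (log2 -2.20, standard error 0.25, adjusted p = 2.55e-07 by edgeR). srprb, which anchors the receptor in the ER membrane, spanned 25.3, 72.5 and 119 CPM in females and 11.0, 19.7 and 25.1 CPM in males (log2 -1.82, standard error 0.19). The lowest female, NF-training female 3 with the lowest vitellogenin share, was only just above the highest male. SRP72, a protein of the particle itself, was 2.84-fold lower in males (47.0 to 141 CPM in females and 22.8 to 35.5 in males). The smallest difference in this role was in SRP68, the partner of SRP72, with a log2 fold change of -0.997.

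The translocon genes were lower in males in 6 of 6 cases, with a median log2 fold change of -1.86, but SEC62 and SEC63 turned to the opposite sign when scaled by library size alone. The symbol SEC61A1, the pore-forming subunit, belonged to a pair of identifiers. ENSDARG00000021669 supplied a median of 92.0% of the pair's TPM in females and 91.6% in males, so the balance of the copies differed little between the sexes. Reads that fit both copies were divided by the authors' quantification, which makes the split uncertain. The main copy had 705, 1193 and 1692 CPM in females and 180, 259 and 398 CPM in males, with no overlap. At 4.56-fold lower in males (log2 -2.19, standard error 0.15, adjusted p = 6.83e-11 by edgeR), it had the smallest adjusted p of the members. The minor copy ENSDARG00000005675 was 5.03-fold lower but more variable, from 34.2 to 286 CPM in females and from 11.5 to 32.1 in males. SEC61G and SEC61B, the small subunits of the channel, showed log2 fold changes of -1.96 and -1.77 (standard errors 0.14 and 0.15). Both were among the 6 members in which the sexes did not overlap even in TPM (background 1.39%), the others being SRPRA, the main SEC61A1 copy, SSR3 and RPN1. SEC62, which serves post-translational import, had the smallest difference of the genes called lower in males, with 84.5 to 137 CPM in females, 60.8 to 90.5 in males and a difference of -0.58 on the log2 scale (standard error 0.11, adjusted p = 0.000105 by edgeR). SEC63, which recruits HSPA5 to the channel, was 2.41-fold lower in males.

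The signal peptidase and TRAP genes were lower in males in 8 of 8 cases, with a median log2 fold change of -1.85, and of these only SPCS3 turned to the opposite sign under library size alone. The TRAP complex sits beside the channel and assists the entry of certain chains. Its subunit SSR3 had 126, 225 and 326 CPM in females and 25.7, 37.8 and 66.6 CPM in males. The groups did not overlap, and the 5.41-fold difference (log2 -2.44, standard error 0.16, adjusted p = 6.88e-11 by edgeR) was exceeded among the members only by that of HYOU1. SSR2 had 169, 378 and 576 CPM in females and 60.3, 93.0 and 170 CPM in males, and SSR1 had 75.0, 269 and 409 in females and 37.6, 58.8 and 79.2 in males. In both genes the ranges touched through NF-training female 3, the lowest of the females. SSR4 was 2.86-fold lower in males. Of the signal peptidase, the catalytic subunit SEC11A was 3.60-fold lower, SPCS2 3.60-fold, SPCS1 3.06-fold and SPCS3 2.07-fold, all 4 with no overlap between the sexes.

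The oligosaccharyltransferase genes were lower in males in 6 of 6 cases, with a median log2 fold change of -1.73, and RPN2 turned to the opposite sign under library size alone. RPN1, a structural subunit near the channel, lay at 158, 248 and 382 CPM in females and 48.0, 56.4 and 84.0 CPM in males, without overlap (log2 -2.05, standard error 0.15, adjusted p = 4.51e-10 by edgeR). RPN2 overlapped only through NF-training female 3, with 97.6, 191 and 277 CPM in females and 48.4, 79.6 and 103 CPM in males (log2 -1.36, standard error 0.16). STT3A and STT3B are alternative catalytic subunits, acting in mammals mainly during and after translocation, respectively. STT3A was 3.38-fold and STT3B 2.84-fold lower in males. STT3A made up 87.4% of their summed TPM in females (81.9% to 91.2%) and 85.9% in males (77.9% to 90.1%), ranges that overlapped. DAD1 was 4.23-fold lower and DDOST 3.26-fold lower in males.

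The HSP70 and HSP90 chaperones and cofactors were the role with the largest median difference (log2 -2.23), with 4 of 4 lower in males under TMM and with the same sign under library size alone. HSPA5 (BiP), the ER HSP70, lay at 105, 179 and 444 CPM in females and 15.2, 38.6 and 71.3 CPM in males. The sexes did not overlap although levels varied over several-fold within each, and the difference was 5.0-fold (log2 -2.32, standard error 0.27, adjusted p = 3.07e-07 by edgeR). HYOU1, the nucleotide exchange factor of HSPA5, ranged from 39.7 to 245 CPM in females and from 10.5 to 27.6 in males. Its 5.65-fold difference (log2 -2.50, standard error 0.27) was the largest of the members. HSP90B1 (GRP94) had 175, 245 and 418 CPM in females and 38.9, 50.7 and 111 CPM in males, a 4.42-fold difference without overlap. DNAJB11, a J-domain cofactor of HSPA5, was 3.81-fold lower in males but overlapped, with 15.3 to 138 CPM in females and 6.73 to 21.4 in males.

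The lectin chaperones, which retain glycoproteins until they are folded, differed less. All 4 were lower in males with a median log2 fold change of -1.09, and CALR, calr3a and CANX turned to the opposite sign under library size alone. calr3a, the most abundant calreticulin, lay at 115, 140 and 242 CPM in females and 50.1, 66.3 and 102 CPM in males (log2 -1.05, standard error 0.11, adjusted p = 5.86e-08 by edgeR). It made up a median of 73.3% of calreticulin TPM in females and 78.4% in males. The membrane-bound CANX overlapped between the sexes, with 84.8, 139 and 263 CPM in females and 34.4, 79.3 and 111 CPM in males (log2 -0.99, standard error 0.19). calr3b was 2.81-fold and CALR 2.2-fold lower in males.

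The disulfide isomerases were mixed, with 3 of 6 tested genes lower in males, 1 higher and a median log2 fold change of -0.46. The genes lower in males were PDIA4, PDIA6 and PDIA3, of which PDIA6 and PDIA3 turned to the opposite sign under library size alone. PDIA4 was 4.30-fold lower (21.7 to 64.6 CPM in females and 4.64 to 25.9 in males). PDIA6 lay at 29.4, 55 and 95.5 CPM in females and 16.0, 24.4 and 45.8 CPM in males. PDIA3 (ERp57), which works with calnexin and calreticulin and was by far the most abundant of the group, lay at 362, 614 and 805 CPM in females and 228, 277 and 478 CPM in males (log2 -1.01, standard error 0.15). PDIA5 had 25, 34.9 and 49.9 CPM in females and 25.9, 38.5 and 54.4 CPM in males, a log2 difference of 0.09 with a standard error of 0.13 (adjusted p = 0.598 by edgeR). pdia7, a relative of PDIA3, was higher in males by 0.40 on the log2 scale (standard error 0.16, adjusted p = 0.0495 by edgeR), with 3.14 to 7.87 CPM in females and 4.0 to 9.87 CPM in males. This call was lost under RLE scaling, with limma voom, and when any of NF-control male 6, OF-control males 1 and 2, NF-training female 3, NF-training males 4 and 5 or OF-training males 5 and 6 was left out. pdia2, a pancreatic isomerase in mammals, had 0.193 to 2.23 CPM in females and 0.806 to 3.10 CPM in males and did not pass (log2 0.64, adjusted p = 0.102 by edgeR, or 0.0252 without OF-control female 4). PDIA5 was called higher in males on the log2(TPM + 1) scale (0.69). The exocrine pancreas markers given above had a higher median in males as well, and their part in the level of pdia2 was not tested.

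**Figure D3:**
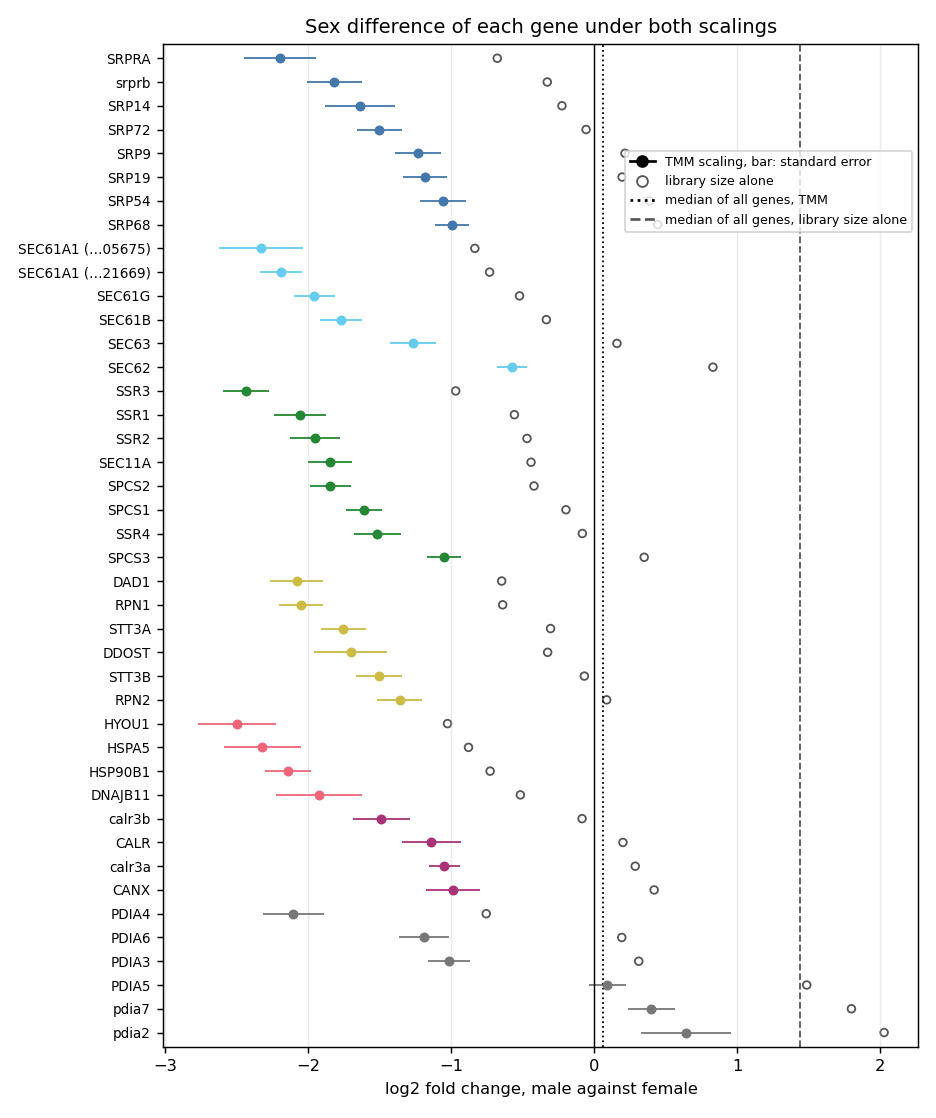
Log2 fold change of male against female for the 42 genes tested, by role, with TMM scaling (filled points, bars show the standard error) and with library size alone (open circles). With TMM the members have a median of -1.63 against 0.06 over all genes (dotted line), and with library size alone a median of -0.21 against 1.44 (dashed line), so 13 genes below 0 with TMM lie above 0 without it.

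Whether a member was called lower in males differed between TMM and library size alone. The median of the members relative to all genes moved little. A change of scaling shifts the log2 fold changes of all genes by about the same amount. This relative median could therefore hardly move between scalings, and it is no test of which calls hold. With the vitellogenin genes removed and TMM kept, 40 of the 40 calls remained in the same direction. TMM already discounts these few abundant genes, so this setting could change little and is no separate check of the calls. With library size alone, in which vitellogenin fills the female libraries, the log2 fold change over all genes had a median of 1.44, 86.5% of all genes were called higher in males, and 16 of the 42 members were called lower (2.48% of all genes) and 5 higher (SEC62, SRP68, PDIA5, pdia7 and pdia2). The members' median was then -0.21. The median of the members minus that of all genes was -1.69 with TMM and -1.65 with library size alone, and it lay between -1.41 and -1.81 over the 12 alternatives other than leaving out single fish. In TPM as deposited, in which vitellogenin also takes a share, 39 of the 43 genes had a higher mean in females. The same share over all genes is not given here.

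The sex difference was present within each of the 4 groups. In a model with a mean for each of the 8 cells of group and sex, 37 of 42 members were lower in males in the NF-control group (8.63% of all genes), 36 in the OF-control group (11.3%), 25 in the NF-training group (5.89%) and 37 in the OF-training group (10.7%). By the same test 0 members were higher in males in any group (5.62%, 9.3%, 4.21% and 7.99% of all genes), with 2 at an unadjusted p under 0.05 in the NF-training group. The medians of the log2 fold change were -1.70, -1.69, -1.35 and -1.80. The count was lowest in the NF-training group, as were the shares of all genes called lower and higher (5.89% and 4.21%). This group contained the female with the lowest vitellogenin share, and the part of that fish in the count was not tested. In that group 2 of 19 exocrine pancreas markers were also called higher in males (17 at an unadjusted p under 0.05) and 2 of 9 leukocyte markers lower with TMM, and their part in the count was not tested. A test of the difference itself found no member whose sex difference changed with training in normally fed fish by edgeR (0 of 42, 2 at an unadjusted p under 0.05, background 0% and 7.47%) or with overfeeding in untrained fish (0 of 42, 0 at an unadjusted p, background 0% and 5.57%), and DESeq2 and limma voom also called 0. The smallest p by training was that of DDOST, a subunit that stabilises the oligosaccharyltransferase. DDOST had 94.6, 122 and 155 CPM in NF-control females, 49.8, 56.1 and 59.3 in NF-training females, 22.2, 14.3 and 20.6 in NF-control males and 43.3, 32.5 and 25.9 in NF-training males. Trained females thus lay below untrained ones and trained males above untrained ones without overlap, but the interaction of 2.00 on the log2 scale (standard error 0.58) had an adjusted p of 0.536 by edgeR. DDOST was picked by its p, and the share of all genes without such overlap was not counted.

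Swim training and overfeeding had smaller effects on these genes, and none passed the test. In the comparison of NF-training with NF-control fish, edgeR called 0 of 42 members (0.173% of all genes), with 6 at an unadjusted p under 0.05 (11.1% of all genes), while DESeq2 called 1 (0.98% of all genes) and limma voom 0. The median log2 fold change was -0.16, and that of the HSP70 and HSP90 chaperones, singled out here from the 7 roles, was -0.64. This role holds 4 genes that varied together (median pairwise correlation 0.838), so their values are not separate observations. HSP90B1, with the smallest p, had 341, 418 and 333 CPM in NF-control females and 232, 178 and 175 CPM in NF-training females, and 95.5, 111 and 75.9 CPM against 82.1, 42.8 and 38.9 CPM in males. Values were lower in trained females without overlap, while NF-training male 4 lay within the range of control males. The log2 difference of -0.84 (standard error 0.22) had an adjusted p of 0.140 by edgeR, between 0.0713 and 0.283 when each fish was left out in turn, and 0.031 by DESeq2. HSP90B1 was picked by its p, and how many of all genes did not overlap in trained females was not counted.

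In the comparison of OF-control with NF-control fish, edgeR again called 0 of 42 members (0% of all genes), with 6 at an unadjusted p under 0.05 (11.3% of all genes), while DESeq2 called 2 (0.524% of all genes) and limma voom 0. HSP90B1 and calr3a were those called by DESeq2. calr3a had the smallest p, with 242, 145 and 144 CPM in NF-control females and 119, 134 and 115 CPM in OF-control females. In males it had 90.0, 86.4 and 102 CPM in the control and 59.9, 67.2 and 50.1 CPM in the overfed group. Overfed fish lay below normally fed fish in both sexes without overlap, with a log2 difference of -0.59 (standard error 0.15) and an adjusted p of 0.220 by edgeR. HSP90B1 likewise did not overlap, at 184, 267 and 227 CPM in OF-control females and 58.1, 43.2 and 40.4 CPM in OF-control males, with an adjusted p of 0.220 by edgeR. Both genes were picked by their p or a DESeq2 call, and the share of all genes without overlap in this comparison was not counted. This comparison and the preceding training comparison share the NF-control fish, so the values of HSP90B1 in them are not independent.

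In overfed fish, the values for training were mostly positive. In OF-training against OF-control, 36 of 42 members had a positive log2 fold change (49.6% of all genes), with a median of 0.17. The members varied together from fish to fish, as given below, so their signs are not separate observations. By edgeR 0 were called (0.00616% of all genes), as by DESeq2 and limma voom. At an unadjusted p under 0.05 there were 8 members, all higher in trained fish, against 5.26% of all genes, namely the channel subunits SEC61G, SEC61B and the main SEC61A1 copy, SSR2, SSR3, RPN2, DAD1 and PDIA6. The main SEC61A1 copy, with the smallest p, had 855, 1130 and 1180 CPM in OF-control females and 1260, 1346 and 1692 CPM in OF-training females, and 222, 211 and 183 CPM against 287, 398 and 247 CPM in males. Trained fish lay above untrained fish in both sexes without overlap, with a log2 difference of 0.52 (standard error 0.20, adjusted p = 0.916 by edgeR). This gene was picked by its p, and the share of all genes without overlap here was not counted. In OF-training against NF-training, edgeR called 0 members (0% of all genes), with 3 at an unadjusted p (9.01%), and DESeq2 and limma voom called 0. STT3B had the smallest p there, with 46.7, 46.2 and 39.4 CPM in NF-training females and 41.3, 64.7 and 115 CPM in OF-training females, which overlapped, and 21.8, 16.2 and 14.0 CPM against 20.1, 22.4 and 22.4 CPM in males. Its log2 difference of 0.53 fell to 0.29 without OF-training female 3.

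The interaction of training and feeding asks whether training acted differently in overfed fish. Of 42 members, 38 had a positive value (50.3% of all genes), with a median of 0.37 on the log2 scale. Here too the signs are not separate observations, as the members varied together. edgeR called 0 (0% of all genes), with 6 at an unadjusted p under 0.05 against 4.47% of all genes, and DESeq2 and limma voom called 0. The smallest p was that of HSP90B1, whose levels in OF-training fish were 192, 258 and 412 CPM in females and 41.9, 68.2 and 39.3 CPM in males. Its interaction of 1.06 (standard error 0.31) had an adjusted p of 0.999 by edgeR, and it draws on the same high NF-control values as the comparisons before.

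**Figure D4:**
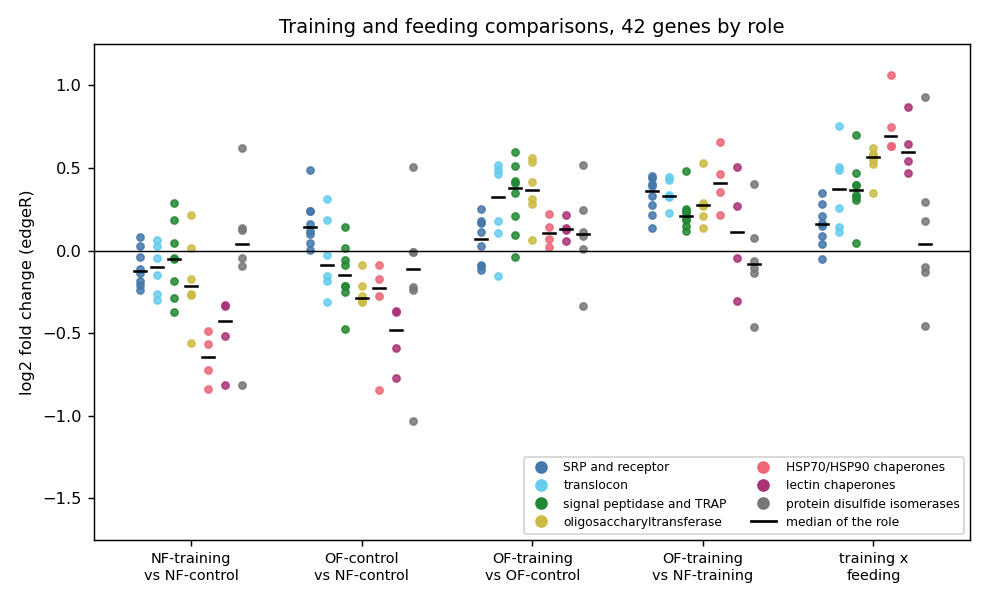
Log2 fold changes of the 42 genes in the training and feeding comparisons and their interaction, by role, with a black bar at the median of each role. None of the points passes the edgeR test. The HSP70 and HSP90 chaperones, singled out from the 7 roles, have a median of -0.64 in NF-training against NF-control, over 4 genes that varied together.

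Females differed widely in vitellogenin output, and the slope of each gene on the log2 ratio of vitellogenin to all other counts was fitted in the 12 females with group as a covariate. Of 42 members, 35 had a positive slope (49% of all genes), with a median of 0.22 per doubling of the ratio against -0.0068 over all genes tested. The signs of these slopes are not separate observations either, as the members varied together. They also depended on the scaling. With library size alone, every member called had a negative slope, as given below with the count over all genes. edgeR called 0 members (1.15% of 13880 genes), limma voom called 1 (1.77% of all genes) and DESeq2 called 5 (5% of all genes), all 5 positive, namely SSR1, SSR2, SSR3, srprb and the main SEC61A1 copy. Without OF-training female 1, edgeR called SSR1 (slope 0.63, adjusted p = 0.0423). Of the marker lists, 2 of 7 leukocyte markers were called with a negative slope by edgeR with TMM, 6 of 12 biliary, endothelial and stellate markers were at an unadjusted p under 0.05, and their part in the slopes of the members was not tested. At an unadjusted p under 0.05 there were 9 members (17% of all genes), 7 with a positive slope and 2, calr3a and PDIA3, with a negative slope. SSR2 had the smallest p, with a slope of 0.51 (standard error 0.12, adjusted p = 0.0795 by edgeR). The ends of the range were set by few fish. SSR2 was at 169 CPM in NF-training female 3 and 227 CPM in NF-control female 1, the females with the least vitellogenin, and between 274 and 576 CPM in the other 10. Without NF-training female 3 the slope of SSR2 was 0.36, and without both of these females it was 0.14 with an adjusted p of 0.966 by edgeR, 1 member was left at an unadjusted p, and the median slope of the members was 0.23. calr3a went the other way, with its highest values of 242 and 184 CPM in those females and 115 to 162 CPM in the remaining ones.

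**Figure D5:**
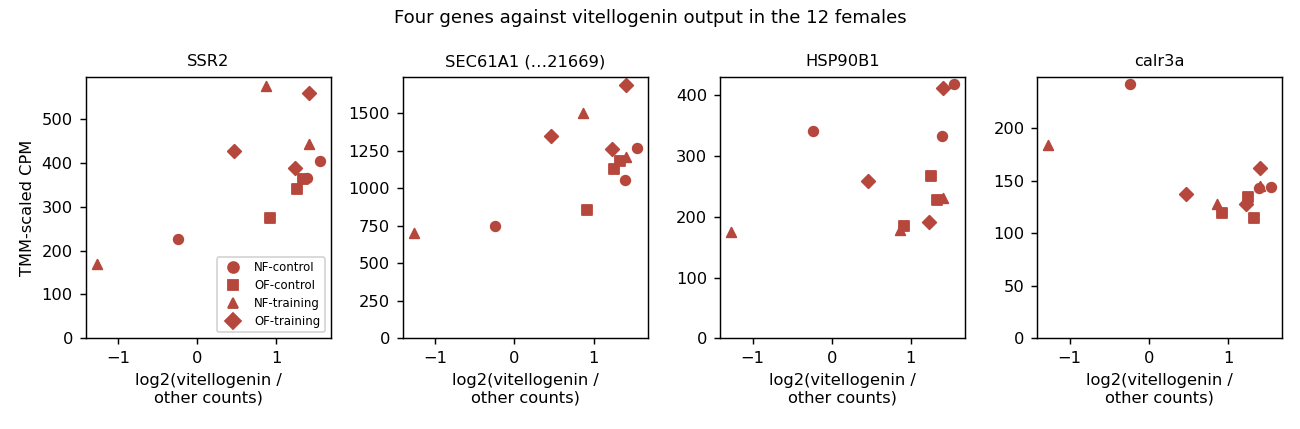
TMM-scaled CPM of SSR2, the main SEC61A1 copy, HSP90B1 and calr3a in the 12 females against the log2 ratio of vitellogenin counts to all other counts, with a symbol for each group. NF-training female 3 and NF-control female 1 stand apart at the left, low in SSR2 (169 and 227 CPM) and high in calr3a (184 and 242 CPM).

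After removing the mean of each cell of group and sex, most members varied together from fish to fish. The correlation of a member's residual log2 CPM with the mean of the other members had a median of 0.756 over the 24 fish (range -0.523 to 0.946), and 33 of 42 exceeded 0.5, against 14.1% of the other genes tested. The values share library and scaling, and are given as a description. SRP72 (0.946), SPCS2 (0.921) and HYOU1 (0.896) followed the others most closely. PDIA3 had a negative value (-0.306), and the lowest was that of pdia2, which had few counts. Within roles, the median pairwise correlation was 0.838 for the HSP70 and HSP90 chaperones, 0.744 for the oligosaccharyltransferase, 0.732 for SRP and receptor and 0.064 for the disulfide isomerases. The lectin chaperones followed the HSP70 and HSP90 chaperones (0.599) more than the translocon (0.207). The sexes differed for some genes, with r of -0.726 in females and 0.587 in males for PDIA3 and -0.253 and 0.819 for calr3a (n = 12 each). The fish with the highest mean residual was OF-training female 3 (0.50 on the log2 scale), and the lowest was OF-training female 1 (-0.58), so the extremes belonged to the same cell.

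The 10 genes outside the members whose residuals were most like the members' mean had correlations from 0.914 to 0.959 over the 24 fish. They were JAGN1, an ER membrane protein, BTF3L4, UFL1, the ligase of the UFM1 modifier, CEP15, os9 and PRKCSH, which handle misfolded and newly glucosylated glycoproteins, DNAJC25, RCC1L, SLC35B3 and SERP1, a protein associated with the translocon. All 10 were lower in males by edgeR with TMM (22.6% of all genes), with log2 fold changes from -2.16 in PRKCSH to -0.63 in RCC1L. Under library size alone 5 of them had the opposite sign.

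Other genes of the secretory pathway were counted from lists that do not overlap with the members. The counts below are with TMM, where 22.6% of all genes were lower and 23.2% higher in males. RLE scaling gave the same counts. Under library size alone the median of each of the 6 lists turned positive (0.45 to 1.09, against 1.44 over all genes). Of 26 tested factors for ER insertion and translocation, 19 were lower in males and 0 higher (20 at an unadjusted p under 0.05, which 52.4% of all genes had), and of 32 further oligosaccharyltransferase subunits and enzymes of the glycan precursor, 19 were lower and 2 higher. TRAM1, a partner of the channel, was 4.78-fold lower in males, and the oligosaccharyltransferase subunits KRTCAP2 and OSTC were 5.28-fold and 3.66-fold lower. Of 36 other ER folding enzymes, 25 were lower and 1 higher, among them PRKCSH (4.47-fold), dnajc3a (4.75-fold) and, by a smaller factor, P4HB (1.54-fold), the classical disulfide isomerase, and PPIB (1.36-fold), the last pair having the opposite sign under library size alone. Of 22 genes for ER-associated degradation, 15 were lower and 0 higher (16 at an unadjusted p), with 2.73-fold for selenos and 3.20-fold for os9, whereas VCP, the ATPase that extracts substrates, had a log2 fold change of -0.22 (adjusted p = 0.213 by edgeR).

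Of 16 sensors and transcription factors of the unfolded protein response, which in general raise ER chaperone genes, 7 were lower and 3 higher in males. Over all genes these shares were 22.6% and 23.2%. With library size alone, 2 of the 16 were lower and 11 higher, against 2.48% and 86.5% of all genes. XBP1 had the largest difference, at 377, 1039 and 2229 CPM in females and 35.8, 61.1 and 81.2 CPM in males. The sexes did not overlap, and the difference was 18.1-fold (log2 -4.18, standard error 0.26, adjusted p = 3.32e-11 by edgeR). Counts per gene do not separate its spliced from its unspliced form. The sensors ern1 (IRE1) and EIF2AK3 (PERK) were 3.37-fold and 3.84-fold lower in males, atf4a was 1.93-fold lower (opposite sign under library size alone), and creb3l3a did not pass (log2 0.25, adjusted p = 0.143 by edgeR). Under library size alone ern1 was no longer called (log2 -0.26, adjusted p = 0.110 by edgeR). Of 36 ER exit genes, 22 were lower and 1 higher. The cargo receptor LMAN1 and its partner MCFD2, which in mammals carry clotting factors out of the ER, were 17.5-fold and 15.1-fold lower in males, with 73.6 to 549 CPM in females against 8.64 to 27.4 in males for LMAN1 and 198 to 559 against 18.3 to 38.6 for MCFD2. TMED10 was 4.79-fold lower. XBP1, LMAN1, MCFD2 and TMED10 were also lower in males under library size alone (log2 -2.66, -2.64, -2.48 and -0.79). In contrast, 9 of 15 hepatocyte markers were higher in males (23.2% of all genes) and 0 lower (22.6%). In the training and feeding comparisons and in the slope on vitellogenin, edgeR called 0 genes of each of these 6 secretory pathway lists. The most at an unadjusted p under 0.05 were 9 of 36 other ER folding enzymes in NF-training against NF-control. In that comparison 11.1% of all genes had such a p.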

How the data were processed

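RNA-seq files of 24 zebrafish livers were used. Per the submitters' processing notes and the study's methods, reads were trimmed with Trim Galore 0.6.4 and quantified with kallisto against GRCz11. The step from transcripts to genes is not given in the sources used here. The authors deposited estimated counts per gene, which are not scaled for library size, and TPM values, which are scaled for transcript length and to a fixed sum per fish. Gene symbols came from a table that matched 29201 of 32520 Ensembl identifiers. No coordinates or sequences are given, as no genome of this build was used.

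Estimated counts were rounded, filtered by edgeR's filterByExpr (minimum count 10; 16223 genes over 24 fish and 13880 over the 12 females) and scaled with TMM. A count near the minimum is imprecise, and the members had from 0 (pdia8) to 22704 (PDIA3) counts per fish. An additive model (group, sex) of the 24 fish and a model of the 8 cells were tested with edgeR's quasi-likelihood test and Benjamini-Hochberg adjustment over all genes (threshold 0.05). A standard error is the log2 fold change divided by the square root of F. Residuals for the correlations were of log2 CPM with a prior count of 2. DESeq2 1.42.0, limma 3.58.1 and edgeR 4.0.16 were run in R 4.3.3. The steps were tested on simulated counts. The members and the lists of other genes and markers were chosen with earlier results of these data known. Values are given for the 3 members with the highest mean TPM in each role, up to 5 called lower and 5 called higher in males with the smallest adjusted p (5 and 1 were found), the smallest p in each other comparison, and the 10 genes most like the members. Examples of the other lists are from the 3 highest by TPM and the 3 smallest by adjusted p. The other members are given by fold change or range, and those named at an unadjusted p were named after their values were seen. Alternatives covered RLE scaling, library size alone, removal of vitellogenin, other filters on low counts (none, or a mean of 10), DESeq2, limma voom, limma on log2 TPM with pseudocounts of 1 and 0.1 (mean TPM of at least 1), a block for the replicate number, no sex covariate, the 12 fish of a comparison alone, the mean of within-group sex differences and each fish left out. Leaving out the 2 females with the least vitellogenin was added after the data were seen.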

Additional observations from a re-analysis of the deposited data

Results flagged for a closer look

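Levels of single fish in 25 genes and 4 groups (100 checks) were compared with the other 5 of their group after adjustment for sex, and 7 values stood apart by the gap to the nearest fish. Chance alone sets apart about 1 in 20 independent groups of 6 values with equal spread. Females and males differed in spread in some genes, as in SRPRA (68.5 to 423 CPM in females, 33.0 to 54.9 in males), so this rate may not hold here. The checks shared fish and many of the genes varied together, so whether 7 of 100 exceeds chance was not tested. Of the 7 values, 4 belonged to NF-training female 3, the female with the lowest vitellogenin share (29.3%), whose sex-adjusted log2 CPM was below that of the other fish in srprb (3.78, next 4.93), SSR1 (5.24, next 6.5), RPN2 (5.94, next 6.89) and STT3A (5.70, next 6.63). Before adjustment these levels were 4.67, 6.23, 6.61 and 6.56. In scaled CPM this female lay above all NF-training males in srprb, SSR1 and STT3A. In RPN2 it lay within their range (97.6 against 80.1 to 103 CPM). DNAJB11 was low in OF-control female 4 after adjustment (3.37, next 4.75), with an unadjusted 4.25. pdia7 was high in NF-control female 3 (3.18 adjusted, 2.99 unadjusted) and in NF-training male 4 (3.12 and 3.31).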

How the results depend on the processing

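The count of members that differed between the sexes was 40 and stayed within 1.5 times this value in all alternatives but library size alone, where it was 21, with 17 of the 40 calls kept in the same direction. There the log2 fold changes of PDIA6 (0.19), RPN2 (0.086), SEC63 (0.16), SEC62 (0.83), SRP68 (0.44), SRP19 (0.19), CANX (0.42), SRP9 (0.21), CALR (0.20), SPCS3 (0.35), SRP54 (0.38), PDIA3 (0.31) and calr3a (0.29) turned positive and the slope of SSR2 on vitellogenin was -0.017. Vitellogenin fills the female libraries in that setting, and its part in these changes was not tested. SEC62 was also positive on log2 TPM (0.024 with a pseudocount of 1 and 0.025 with 0.1), where SEC62, CANX, CALR and SRP54 were no longer called. Without single fish the count was 39 to 41.

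DESeq2 called 1 member in NF-training against NF-control, 2 in OF-control against NF-control and 5 in the slope on vitellogenin. For this slope limma voom called 1 and library size alone 12, all 12 negative. Most of all genes tested were called for the slope with library size alone (count in the next paragraph), so the 12 are no result particular to the members. The slope count was 0 to 1 without single fish, and the counts of the other comparisons of training, feeding, their interaction and the interactions with sex stayed at 0 to 0. The cause of these differences between tools was not tested.

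Counts over all genes moved more. For male against female, 7425 became 14428 with library size alone. For NF-training against NF-control, 28 became 3 with library size alone, 52 with a mean of at least 10 counts, 159 with DESeq2, 45 on log2(TPM + 1), 0 without the sex covariate and 2 in the 12 fish alone. For OF-control against NF-control, 0 became 85 and for OF-training against NF-training, 0 became 13 with DESeq2. For the slope on vitellogenin, 159 became 8807 with library size alone, 356 with no filter, 694 with DESeq2, 245 with limma voom and 0 without both females with little vitellogenin.

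Fish with the same replicate number in different groups had residuals with little correlation. Of 36 pairs with the same number, 8 had residuals correlated over 0.1, and the median was -0.0085, against -0.012 for pairs with other numbers. Whether the numbers stand for a shared handling or order was not tested. With the replicate number as a block, 39 members differed between the sexes, with pdia7 lost, 6555 of all genes did, and PDIA5 changed sign to -0.0025.

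Counts were lowest for pdia8 (0 to 20 per fish), which was not tested, and pdia2 (2 to 136). Of the alternatives run, pdia2 was called higher in males only with library size alone (log2 2.03) and without OF-control female 4 (0.85).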
